A study of Oryctolagus cuniculus with 6 samples.

Results

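COX1, COX2 and COX3 are the 3 subunits of cytochrome c oxidase that the mitochondrial genome encodes. They were followed as 3 Ensembl gene IDs of 23669 in count tables of the rabbit left ventricle, the chamber that pumps blood into the aorta. The IDs are ENSOCUG00000029096 (COX1), ENSOCUG00000029099 (COX2) and ENSOCUG00000029103 (COX3). They were chosen by place: they are numbers 16, 19 and 23 of a run of 37 consecutive IDs, read in the order of genes on a vertebrate mitochondrial genome. The tables pair no ID with a name, and the reference table provided, of 38822 genes of the assembly mOryCun1.1, matched 0 IDs and lists none of the 3 genes. Gene names below are therefore names by place. Sequences, lengths, coordinates and exons of the IDs were not used here, and neither were nuclear COX genes or cell type markers, so the tissue label was not checked.

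The 6 libraries form 1 group of adult rabbits (Oryctolagus cuniculus), with strain, sex and animal numbers not given in the labels. All had sham surgery: a thread was laid around a coronary artery, and the artery was not closed. Left ventricular tissue was taken 3 weeks later, from hearts flushed free of blood without calcium, and frozen. Ribosomal RNA was depleted and stranded libraries of total RNA were sequenced in pairs, per the labels' protocols. The titles carry the prefixes 13872 (libraries 1 to 3) and 14285 (libraries 4 to 6), whose meaning is not given, and the labels name a pair of RNA extraction kits without tying them to libraries. Nothing ties a library to an animal, so any p-value measures only the spread between these libraries, which may be technical. Fewer cells of a type and less RNA per cell cannot be told apart in tissue RNA.

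Cytochrome c oxidase, or complex IV, is the last enzyme of the respiratory chain: it passes electrons from cytochrome c to oxygen and pumps protons across the inner mitochondrial membrane. COX1 carries the haem groups and the copper ion of the site where oxygen is reduced. COX2 holds the copper site that receives electrons from cytochrome c, and COX3 completes the core without a metal centre. Heart muscle is rich in mitochondria. In vertebrates the 3 genes lie on the same strand, with COX1 first, and are transcribed as part of one long precursor RNA that is cut mainly at the tRNAs between genes. A tRNA gene for serine lies beside the end of COX1 on the opposite strand, and the genes for ATP8 and ATP6 lie between COX2 and COX3.

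The order was checked against the strand of the counts, which the choice of IDs had not used. Of the 28 places that hold genes of the COX strand, 16 had 100 or more counts in a library, both strands together. Summed over libraries, all 16 had most of their counts in the strand column used here, called the own strand. Of the 9 places of the opposite strand, namely ND6 and 8 tRNAs, 6 reached 100 counts, and by the same sums all 6 had most of their counts in the other column, called the other strand. Library by library, none of the 16 went the other way, while 2 of the 6 did in some libraries. These were ND6, with 52.7% of its summed counts on the other strand and most counts on the own strand in 4 libraries, and the tRNA for glutamine, with most on the own strand in 2 libraries. Whether an ID is the gene its place names was not tested by sequence.

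COX1 was high in all 6 libraries. Levels are given in CPM, the counts of an ID after each library's gene counts are scaled to 1000000. COX1 stood at 67470 in library 1, 42615 in library 2, 41096 in library 3, 80834 in library 4, 52207 in library 5 and 75905 in library 6. Libraries 1, 4 and 6 were the 3 highest and libraries 2, 3 and 5 the 3 lowest, and the highest exceeded the lowest by 1.97-fold. By number of counts, not scaled for length, COX1 was the second ID of its library in libraries 1, 4 and 6 and the third in libraries 2, 3 and 5. The exact 95% interval of each value was narrow, for example 40985 to 41207 CPM in library 3, so counting error did not limit this order. The order depended on the denominator: as a share of the counts on the run of 37 IDs, COX1 was highest in library 3 (68.9%) and lowest in library 1 (41.8%), with 55.2% to 66.6% in the rest.

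COX2 was abundant in 3 libraries and almost without counts in the other 3. It stood at 8092 CPM in library 1, 7400 CPM in library 4 and 8029 CPM in library 6, from 90913, 80928 and 100473 counts. In libraries 2, 3 and 5 it stood at 10.4, 5.91 and 6.08 CPM, from 102, 73 and 65 counts. No library lay between these levels, and the highest value was 1369-fold the lowest. COX2 was number 7, 9 and 7 by counts in libraries 1, 4 and 6, and number 7313, 9140 and 8699 in libraries 2, 3 and 5.

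COX3 parted the libraries in the same way. It stood at 3130 CPM in library 1, 2075 CPM in library 4 and 2102 CPM in library 6, from 35163, 22698 and 26303 counts. In libraries 2, 3 and 5 it stood at 8.14, 5.59 and 4.68 CPM, from 80, 69 and 50 counts, a range of 669-fold over the 6 libraries. The low values were above 0 with their exact 95% intervals: the lowest, in library 5, had an interval of 3.47 to 6.17 CPM, and a count of 3, the most that a count of 0 allows, would be 0.281 CPM there. Both prefixes held high and low libraries of COX2 and of COX3. The libraries are not grouped by these values in any test here, since such groups would be defined by the outcome itself.

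**Figure D1:**
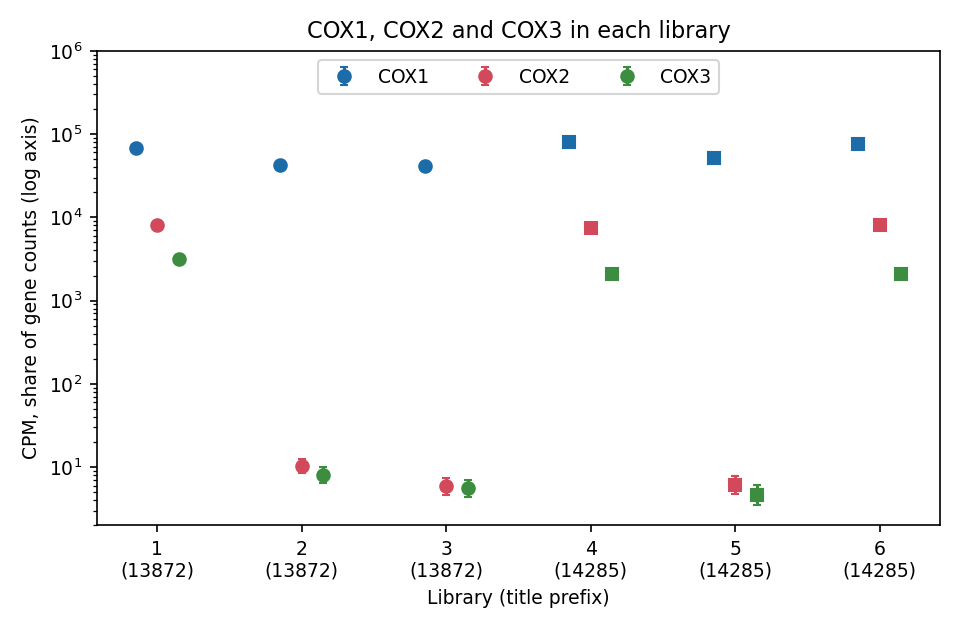
Level of COX1 (blue), COX2 (red) and COX3 (green) in CPM on a log axis for each library, with the title prefix in brackets (circles 13872, squares 14285). Bars are exact 95% counting intervals; COX1 lies between 41096 and 80834 CPM in all libraries, while COX2 and COX3 lie at 2075 CPM or higher in libraries 1, 4 and 6 and at 10.4 CPM or lower in the rest.

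The spread of COX2 and COX3 was among the largest in the tables. The SD of log2 CPM over the 6 libraries was 5.51 for COX2 and 4.72 for COX3, against a median of 0.231 over the 9277 IDs whose mean reached 5 CPM. Only 1 of these IDs had a larger SD than COX2, and 7 had a larger SD than COX3. Such a spread was not particular to the COX IDs. By highest over lowest library, ATP6 (2381-fold), ND5 (2757-fold) and CYTB (1812-fold) of the same run ranged wider than COX2 (1369-fold). An SD of 1 or more was reached by 2 of the 3 COX IDs and by 0.981% of the 9277. The SD of COX1 was 0.42, which 13.5% of the IDs exceeded. Of the 68 IDs whose mean reached 1000 CPM, with a median SD of 0.215, 13 exceeded COX1. A range of 2-fold or more between libraries, with counts under 3 raised to 3, was found in 19.5% of the 9277 IDs and one of 100-fold or more in 0.194%. COX2 and COX3 passed both limits and COX1, at 1.97-fold, neither. The range of COX1 lay so near the limit of 2-fold that it passed as a share of all fragments (2.39-fold), without the run in the total (2.13-fold) and with TMM (2.18-fold). Of the 18 IDs that passed the limit of 100-fold, 11 lay in the run, where 17 IDs reached a mean of 5 CPM. Apart from COX2 and COX3, the 11 reached that mean only through libraries 1, 4 and 6. ATP6, for example, had 2.19 to 5.24 CPM in the rest, and ATP8 had at most 1 count in each. The count of 11 is therefore a description only.

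**Figure D2:**
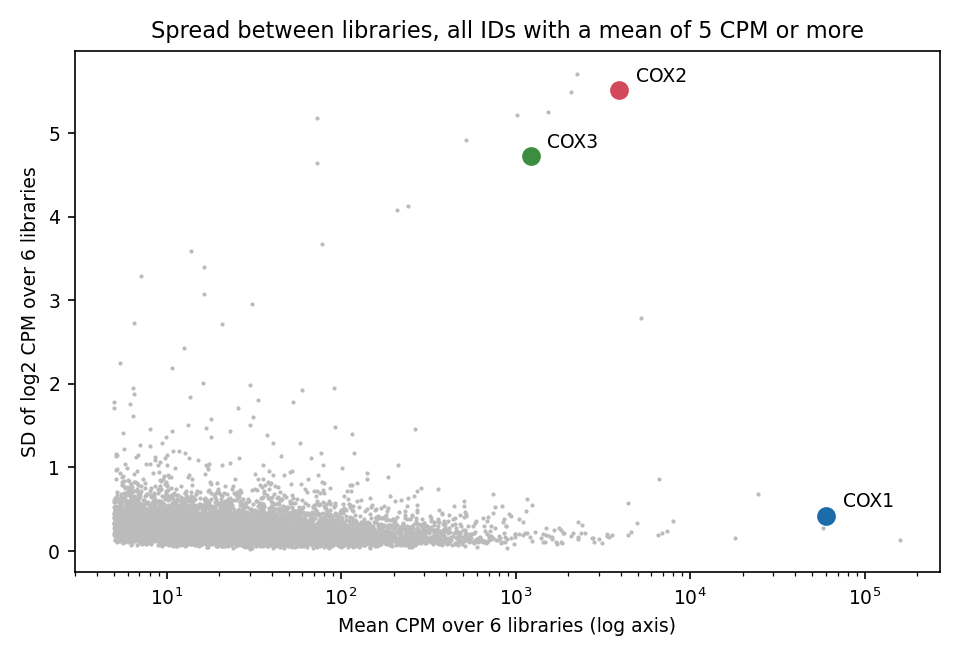
Each grey point is 1 of 9277 IDs, with its mean CPM over 6 libraries (log axis) and the SD of its log2 CPM. COX2 (5.51) and COX3 (4.72) lie far above the bulk of IDs, whose median is 0.231, and COX1 (0.42) lies near the bulk at the far right.

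The ratio of COX2 to COX1 counts was read across libraries only, since it is not scaled for the lengths of the genes. It does not depend on the library total. COX2 had 11.99% as many counts as COX1 in library 1, 9.16% in library 4 and 10.6% in library 6. In library 2 the ratio was 0.0243% (exact 95% interval 0.0198% to 0.0296%), in library 3 it was 0.0144% (0.0113% to 0.0181%) and in library 5 it was 0.0117% (0.00899% to 0.0148%). The highest ratio was 1029-fold the lowest. The division by COX1 thus took up little of the range of COX2.

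The ratio of COX3 to COX1 counts was 4.64% in library 1, 2.57% in library 4 and 2.77% in library 6. It was 0.0191% (exact 95% interval 0.0151% to 0.0238%) in library 2, 0.0136% (0.0106% to 0.0172%) in library 3 and 0.00896% (0.00665% to 0.0118%) in library 5. The range was 517-fold, and it was 309-fold without library 1 and 341-fold without library 5. Among the libraries with many COX3 counts, library 1 stood above libraries 4 and 6, with an interval of 4.59% to 4.69% that lay far from the 2.73% to 2.80% of library 6.

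COX2 and COX3 did not differ between libraries by the same factor. COX3 had 38.7% as many counts as COX2 in library 1, 28.05% in library 4 and 26.2% in library 6. It had 78.4% (exact 95% interval 57.8% to 106.1%) in library 2, 94.5% (67.02% to 133.2%) in library 3 and 76.9% (52.1% to 113%) in library 5. Each of the latter 3 intervals lay above the 3 former values. The gap between the high and the low libraries was thus smaller for COX3 than for COX2.

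**Figure D3:**
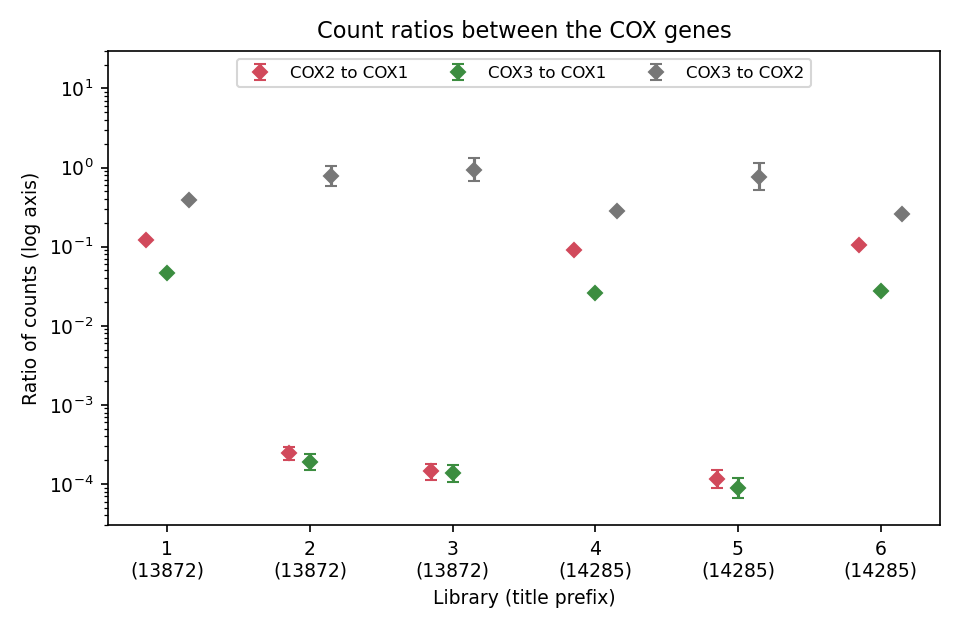
Ratios of counts in each library on a log axis, COX2 to COX1 (red), COX3 to COX1 (green) and COX3 to COX2 (grey), with exact 95% intervals. The ratios to COX1 span 1029-fold and 517-fold, while COX3 to COX2 spans 3.61-fold and is highest in libraries 2, 3 and 5.

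COX1 took most of the counts on the 13 protein-coding places of the run in every library. Its share was 72.5% in library 1, 75.9% in library 4 and 71.1% in library 6, and it was 96.5% to 97.9% in the rest. COX2 made up 8.70%, 6.95% and 7.52% of these counts in libraries 1, 4 and 6, and COX3 3.36%, 1.95% and 1.97%. In libraries 2, 3 and 5 COX2 made up at most 0.0235% and COX3 at most 0.0185%. These shares are of counts, so a long gene weighs more than a short one.

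The protein-coding and ribosomal RNA places before COX1 had much smaller ranges than COX2 and COX3. ND1, a complex I subunit at place 6, ranged 3.53-fold, from 329.55 CPM in library 3 to 1163 CPM in library 6, and like COX1 it had its 3 highest values in libraries 1, 4 and 6. ND2, also of complex I, at place 10, ranged 2.34-fold, with its highest value, 1235 CPM, in library 5 and its lowest in library 3. The 12S and 16S ribosomal RNAs ranged 4.43-fold and 4.01-fold, each with the highest value in library 1. Since ribosomal RNA was depleted, the part of depletion in these ranges is not known and was not tested.

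The first place with the pattern of COX2 and COX3 came before COX1. Place 11, the tRNA for tryptophan, had 3488 counts in library 1, 850 in library 4 and 934 in library 6, against 7 to 39 in the rest. None of its counts stayed in the unstranded column, where a fragment that overlaps more than 1 ID is counted on none of them. COX1, with a range of 1.97-fold, thus lies between place 11 and later places that range over 100-fold. The places directly beside it did not: on the own strand, place 15 ranged 4.09-fold and place 17 14.7-fold, both from few counts. On the other strand, place 15, the tRNA for tyrosine, had 560, 641 and 960 counts in libraries 1, 4 and 6. It had 430, 317 and 447 in libraries 2, 3 and 5.

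After COX1, the 7 other protein-coding places of its strand all had ranges over 100-fold, up to 2757-fold and with a median of 1305-fold. The smallest, 651-fold for ATP8 and 709-fold for ND4L, are lower bounds, since counts under 3 were raised to 3. Between COX2 and COX3 lie the tRNA for lysine, without counts, and the ATP synthase subunits ATP8 and ATP6. ATP8 reached 134 CPM in library 1, 142 CPM in library 4 and 158 CPM in library 6, and had at most 1 count in each of the rest. ATP6 reached 3208 CPM in library 1, 4101 CPM in library 4 and 5206 CPM in library 6, against 2.19 to 5.24 CPM elsewhere. The order of libraries 1, 4 and 6 thus differed between neighbours: ATP6 was lowest in library 1, where COX3 was highest. The tRNAs for aspartate (place 18) and glycine (place 24), beside COX2 and COX3, had no counts in any library on either strand.

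**Figure D4:**
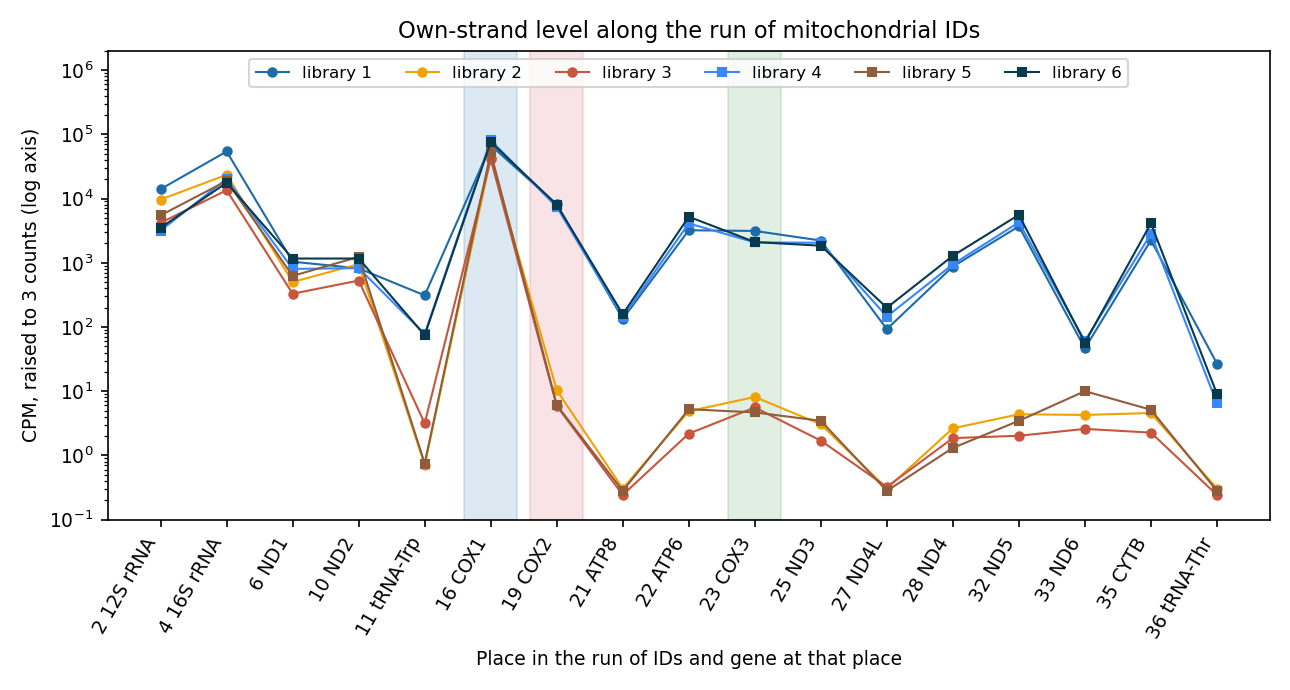
Own-strand CPM (log axis, counts under 3 raised to 3) at the 17 places of the run with 100 or more own-strand counts in a library, in order of place, with 1 line per library and the COX places shaded. Values are not scaled for length; the libraries lie within 4.43-fold of each other at places 2 to 10 and within 1.97-fold at COX1, and part into libraries 1, 4 and 6 above and 2, 3 and 5 below at place 11 and at each place after COX1.

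The end of COX1 could be followed through place 17, the tRNA for serine on the opposite strand. On the other strand, this ID collected 68532 counts in library 1, 119493 in library 4 and 88100 in library 6, but only 3708 to 5391 in the rest. It had no unstranded count in any library, so each of its fragments also overlapped another ID. For COX1, the counts of both strand columns exceeded the unstranded counts by 70505 in library 1, 121029 in library 4 and 90753 in library 6, and by 4990 to 6633 in the rest. The other-strand counts of place 17 made up 74.3% to 98.7% of this excess.

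Set against COX1's own counts, those of place 17 were 9.04% in library 1, 13.5% in library 4 and 9.27% in library 6. They were 0.885% (exact 95% interval 0.857% to 0.914%) in library 2, 1.02% (0.995% to 1.05%) in library 3 and 0.966% (0.941% to 0.992%) in library 5. The range of this share was 15.3-fold, against 1029-fold for the ratio of COX2 to COX1 and 517.5-fold for that of COX3. In CPM, the place 17 counts ran from 377 in library 2 to 10926 in library 4. Counts at the place 17 end of COX1 thus differed more between libraries than COX1 as a whole, and less than COX2 or COX3. This holds for that end only: place 15, at the other end, had 317 to 960 other-strand counts over the libraries. Without the counts of place 17, COX1 had 61370 CPM in library 1, 69908 CPM in library 4 and 68865 CPM in library 6, and between 40676 and 51702 CPM in the rest. The range was then 1.72-fold, and the same 3 libraries were the highest.

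**Figure D5:**
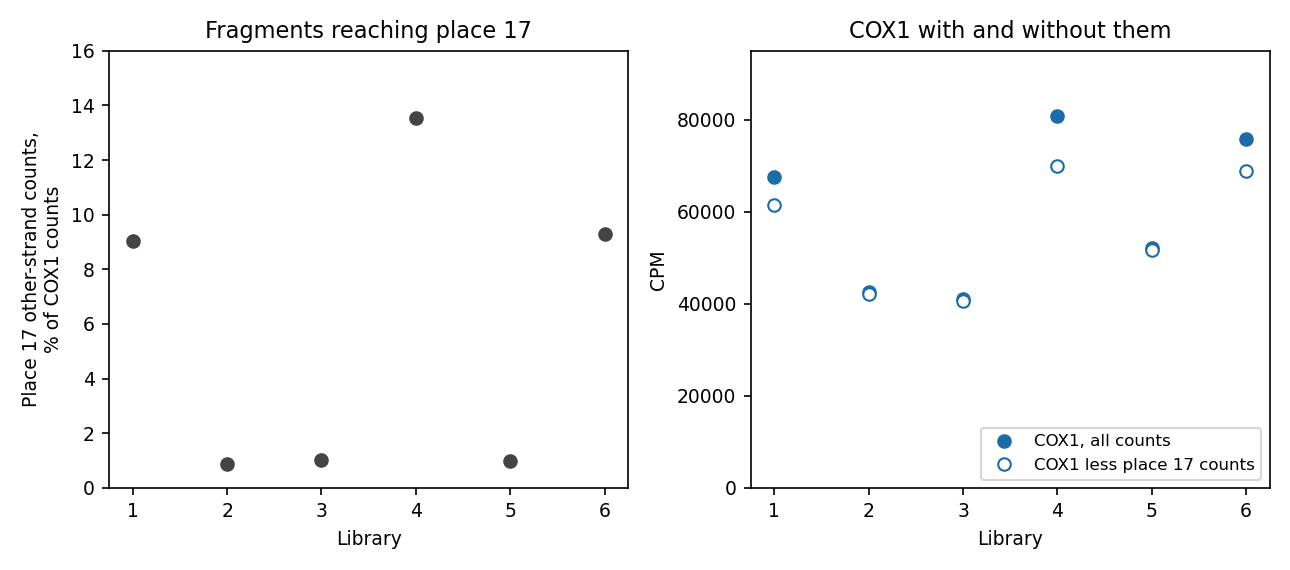
Left, other-strand counts of place 17 as a percentage of COX1 counts in each library, with exact 95% intervals (smaller than the points): 9.04% to 13.5% in libraries 1, 4 and 6 and 0.885% to 1.02% in libraries 2, 3 and 5. Right, COX1 in CPM with all counts (filled) and less those of place 17 (open), on an axis from 0.

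Other-strand counts of the COX IDs were few. COX2 had 532 to 785 of them where its own-strand level was high, and 0 to 4 where it was low. COX3 had 335 to 458 in libraries 4 and 6, 602 in library 1, and at most 1 elsewhere. Other-strand counts of COX2 and COX3 were thus high and low in the same libraries as own-strand counts. This is no separate observation. Beside 50 to 102 own-strand counts, few other-strand counts could appear at the shares found in libraries 1, 4 and 6. As a share of counts on both strands, COX2 had 0.527% to 0.856% on the other strand in libraries 1, 4 and 6, 3.77% in library 2 and 3.95% in library 3, the latter 2 values from 4 and 3 counts. In library 5 the count of 0, beside 65 on the own strand, allows up to 4.62%.

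The other-strand share of COX1 did not overlap between the title prefixes, unlike its level. It was 0.311%, 0.679% and 0.586% in the 3 libraries under 13872 and 0.0981%, 0.116% and 0.0913% under 14285. The mean was 0.525% ± 0.191 (SD, n = 3) against 0.102% ± 0.013, and the prefixes did not overlap. Of 1133 IDs with 1000 or more counts in each library, both strands together, 81 (7.15%) likewise had a higher other-strand share in every library under 13872 than under 14285. Another 47 had a lower share in every library under 13872, so a lack of overlap was found in both directions. The other-strand shares of the 12S and 16S ribosomal RNAs also had no overlap, at 0.148% ± 0.074 against 0.00651% ± 0.00441 and at 0.101% ± 0.068 against 0.0160% ± 0.0069. In libraries 4, 5 and 6 they rested on only 4, 2 and 2 other-strand counts for 12S and 53, 23 and 28 for 16S. The other-strand shares of ND1 and ND2 overlapped, at 17.4% ± 6.5 against 10.8% ± 3.0 and at 5.94% ± 0.79 against 5.42% ± 1.36. These 5 IDs were chosen for this comparison after their values were seen. For COX1 and both ribosomal RNAs the exact two-sided permutation p was 0.1, which is as small as 3 against 3 can give, and 0.167 when adjusted over the 5. For ND1 and ND2 the exact permutation p was 0.3 and 0.7. With these labels, effects of the prefix, the kit and the animal cannot be told apart.

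Reads of a near-identical copy elsewhere in the genome can be counted there or discarded as multiply mapped, so the levels of the 3 COX IDs are uncertain to that extent. ENSOCUG00000026762, an ID outside the run that was chosen after its values were seen, lay at 272 to 317 CPM where COX2 was high, and at 8811 to 12344 CPM where COX2 was low. Its sum with COX2 was 8364, 9530, 8817, 7707, 12350 and 8345 CPM in libraries 1 to 6, a range of 1.60-fold where COX2 alone had 1369-fold. COX2 made up 96.0% to 96.7% of the sum in libraries 1, 4 and 6 and at most 0.109% in the rest. Since the ID was chosen with its values known, the evenness of the sum is a description and no test. Relative to COX1 the sum was less even: it was 9.53% to 12.4% of the COX1 counts where COX2 was high and 21.5% to 23.7% where COX2 was low, a range of 2.48-fold. Whether this ID holds a copy of COX2 was not tested. Multiply mapped fragments ranged from 6.75% to 7.18% of all fragments in the former libraries and from 7.48% to 8.64% in the latter, and their part in the result was not tested.

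Outside the run, no ID among 9260 compared came close to COX2 or COX3 in both the size and the direction of the differences. Likeness was the root mean square difference of centred log2 CPM over the 6 libraries. An ID with a small spread lies far from COX2 by this measure, whatever its order of libraries. The closest to both was ENSOCUG00000004289, at a distance of 3.14 from COX2 and 2.44 from COX3 on the log2 scale, where COX2's own SD was 5.51. Its level was 122 CPM in library 1, 35.6 CPM in library 4 and 18.1 CPM in library 6, while the rest had 0.468 to 9.07 CPM. The mirror image of COX3 was met more closely: ENSOCUG00000025982 lay at a distance of 0.93 from it and ENSOCUG00000026762 at 1.77, and these IDs were also the closest to the mirror image of COX2, at 1.50 and 2.50. ENSOCUG00000025982 lay between 1.28 and 3.56 CPM where COX3 was high, and between 238 and 622 CPM where it was low. For COX1, whose range was small, ENSOCUG00000015891 was the closest ID, at a distance of 0.089. It had 5.99 to 7.22 CPM in libraries 1, 4 and 6 and 3.48 to 4.87 CPM in the rest. The next closest were ENSOCUG00000024324 to COX1, at 0.13, and ENSOCUG00000024691 to COX2 and COX3, at 3.93 and 3.26. ENSOCUG00000024691 did not part the libraries as COX2 did: it had 63.2 CPM in library 2 and 53.6 CPM in library 1. The mirror image of COX1 was met by ENSOCUG00000005987 and ENSOCUG00000000747, each at 0.12.

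The title prefixes were compared because they are the only division the labels give. COX1 averaged 50394 ± 14808 CPM (SD, n = 3) under 13872 and 69649 ± 15305 CPM under 14285. The log2 fold change, 14285 over 13872, was 0.52 (SE 0.26, adjusted p = 0.295, edgeR quasi-likelihood test over 11945 IDs). For COX2 it was 0.96 (SE 2.40, adjusted p = 0.848, edgeR) and for COX3 0.44 (SE 2.17, adjusted p = 0.926, edgeR). None of the 3 IDs passed the threshold, where 0.0419% of all IDs tested did, and neither COX1 nor COX2 did with DESeq2, which gave no adjusted p for COX3. None had an unadjusted p under 0.05 (edgeR), where 21% of the IDs tested did; that of COX1 was 0.0816. The libraries of the prefixes overlapped for each of them, where 26.2% of the IDs tested had no overlap. Without library 1 alone, the log2 fold change was 9.40 for COX2 and 7.77 for COX3 (adjusted p = 0.183 and 0.186, edgeR); both other libraries under 13872 had low values. Without library 2 or 3 that of COX2 was 0.38, without library 4 it was 0.63, without library 5 it was 1.54 and without library 6 it was 0.45. The fold change of COX3 was 1.03 without library 5 and 0.068 without library 4. The sign for COX3 turned when library 2, 3 or 6 was left out, with log2 fold changes of -0.14, -0.14 and -0.01.

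The mean log2 ratio of COX2 to COX1 was -9.28 ± 5.40 (SD, n = 3) under 13872 and -6.59 ± 5.61 under 14285, a difference of 2.69 (exact two-sided permutation p = 1). For COX3 to COX1 it was -9.88 ± 4.72 and -7.97 ± 4.74, a difference of 1.91 (exact permutation p = 1). Adjusted over these 2 ratios, both p-values stayed at 1, and 0.1 is the smallest that 3 against 3 allows. The spread of the ratios within each prefix was larger than the difference between the prefixes.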

How the data were processed

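Fragments per gene were deposited as raw counts in STAR's table layout, as the row names show, with 1 table for each of 6 libraries. The submitters' processing notes name STAR, DESeq2 and the build OryCun2.0; tool versions and the annotation are not given in the sources here. The strand-specific column with more gene counts (column 4) was used, with 9829581 to 12514152 gene counts per library, and the 4 rows that name no gene stayed out of totals and tests. Its complement (column 3) and the unstranded counts (column 2) were used where named.

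CPM, ratios and exact (Clopper-Pearson) 95% intervals were computed from these counts; without molecular identifiers, these intervals cover only counting error. SDs of log2 CPM used a prior count of 2 and IDs whose mean reached 5 CPM. Title prefixes were compared with edgeR 4.0.16 (TMM, filterByExpr, quasi-likelihood test, Benjamini-Hochberg adjustment over all IDs tested, threshold 0.05) and, for ratios, an exact permutation test, two-sided (scipy 1.17.1). The SE given with an edgeR fold change is its absolute log2 value divided by the square root of the test's F statistic. Both the edgeR fit and the spread were tested on simulated data. Alternatives were DESeq2 1.42.0, DESeq2 size factors, no low-count filter, unstranded counts, other denominators, the run of 37 IDs left out of totals and each library left out.

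The members, lists and rules were chosen with earlier results of these data known. By rule, the text names the 3 COX IDs, the mitochondrial IDs by place and, for each COX ID, the 2 IDs outside the run closest to its profile and the 2 closest to its mirror image, by root mean square difference of centred log2 CPM. No library was a second deposit of another: chi-square per degree of freedom was 17.8 or more for every pair.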

Additional observations from a re-analysis of the deposited data

Results flagged for a closer look

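In 1 of 21 sets of 6 values, a single library lay apart from the remaining libraries; by chance about 1 set in 20 does. The other-strand share of COX3 was 0% in library 3, from 0 other-strand counts beside 69 on the own strand, and 1.23% to 1.96% in the other libraries. A count of 0 beside 69 allows a share of up to 4.35%, so a difference from the other libraries was not detectable at this depth.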

How the results depend on the processing

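A value with a test was called kept if its direction and its side of the test's threshold stayed the same. A value without a test was called kept if it moved by less than 1 SD between libraries. On the log2 scale this SD, taken without a prior count, was 5.14 for COX2 to COX1 and 4.36 for COX3 to COX1. For the levels it was also taken without a prior count. It therefore differed slightly from the SDs given above, 0.42 for COX1, 5.51 for COX2 and 4.72 for COX3. The permutation p of the ratios cannot fall below 0.1 at 3 against 3, so it could not pass the threshold. The prefix difference of COX2 counted as kept at 9.40 without library 1, against 0.959 with all libraries. By this loose rule, 91 of 94 values recomputed under an alternative were kept, which says little about their stability. The 3 others were the prefix difference of COX3, which was -0.138 without library 2, -0.137 without library 3 and -0.0142 without library 6 (adjusted p of 0.979, 0.982 and 0.999, edgeR); these fits had fewer libraries, and the cause was not tested. With each library left out in turn, the log2 prefix difference ranged from 0.362 to 0.823 for COX1, from 0.378 to 9.40 for COX2 and from -0.138 to 7.77 for COX3. The adjusted p lay between 0.155 and 0.999 over all alternatives and COX IDs, and DESeq2 gave no adjusted p for COX3. The difference of the log2 ratios ranged from 0.946 to 5.93 (COX2 to COX1) and from 0.424 to 4.65 (COX3 to COX1) with a library left out. The highest over the lowest library was 1.65 to 2.39 for COX1, on both sides of 2-fold, 808 to 1602 for COX2 and 325 to 735 for COX3 under other denominators and unstranded counts. With 1 library left out it was 1.85 to 1.97, 1330 to 1369 and 449 to 669. The ratios to COX1 then ranged 834-fold to 1029-fold and 309-fold to 517-fold. Over all IDs edgeR called 5, DESeq2 500 and edgeR without a low-count filter 79, none of them a COX ID; with a library left out edgeR called 1 or 2. Ratios per coding length were not run, since no lengths were used here. In libraries 2, 3 and 5, COX2 and COX3 rest on 50 to 102 counts, which limits the precision of their ratio. No paired analysis was possible because all libraries belong to 1 group.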
